A study of Mus musculus with 32 samples.

Results

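The fastest-cleared maternal transcripts are the 150 of 5489 stored mRNAs that lost the most between the zygote and the late 2-cell embryo. Eligible were the protein-coding genes with a mean FPKM of 10 or more in the 2 DMSO zygote libraries, 5489 of 21897. FPKM is the number of sequenced fragments scaled to transcript length and to the mapped fragments of the library. They were ranked by the ratio of the mean zygote level to the mean late 2-cell level under DMSO, with 1 FPKM added to both. The ratio ran from 9.651 to 54.43 in the 150 members, with a median of 12.16, against a median of 1.537 over all eligible genes. The members were chosen by these values of the zygote and late 2-cell DMSO libraries, so the values are a description without a test. At the edge of the set, Rab3gap1 had a ratio of 9.664 and Nrap, the last inside, one of 9.651, from 16.13 FPKM in the zygote to 0.775 in the late 2-cell embryo. The first genes outside were Ube2t, a ubiquitin-conjugating enzyme, with a ratio of 9.564, and Trmt10b with 9.559.

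All RNA came from WT embryos of B6D2F1/J mothers and B6D2F1/J fathers, made by in vitro fertilization with gametes of mice aged 6 to 8 weeks and cultured in KSOM medium. In the A-485 experiment, embryos were held from 4 to 20 hours post insemination (hpi) in 10 µM A-485, an inhibitor of the histone acetyltransferases CBP and p300, or in DMSO, and RNA was sequenced at the zygote stage and at both ends of the 2-cell stage. The inhibitor had been washed off before the late 2-cell stage. In the TSA experiment, late 2-cell embryos were sequenced after 50 nM trichostatin A (TSA), a histone deacetylase inhibitor, or DMSO, present from 8 to 28 hpi. Each of the 8 groups had 2 libraries. The labels do not say whether the zygote, early and late libraries of the A-485 experiment were collected or sequenced together. Stage and batch therefore cannot be told apart along either arm. The labels do not say that the 2 came from separate batches of embryos, so every p-value measures the spread between these libraries, which may be technical. Whole embryos were sequenced, so fewer surviving embryos and less RNA per embryo cannot be told apart. Late 2-cell TSA libraries are set against the zygotes of the A-485 experiment where a percent of the zygote level is given, since no zygotes belonged to the TSA experiment.

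A fully grown oocyte stops transcribing and hands the embryo a store of mRNA. Part of that store is deadenylated and degraded by machinery the oocyte itself supplies, from meiotic maturation on, and part persists until products of the newly active embryonic genome take over. In the mouse the main burst of embryonic transcription falls at the 2-cell stage, and acetylation of histone H3 at lysine residues by CBP and p300 marks the promoters and enhancers that become active. The comparisons below ask whether clearance of the fastest-cleared mRNAs proceeded during and after a block of that acetylation, or under a block of deacetylation.

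The promoters of 4 members are shown, chosen after their values were seen, because they bracket the set. Rgs2 and Bms1 had a promoter peak of open chromatin in every list and opposite changes under A-485, whereas Sox8, with the largest change under TSA, and Obox1, which was cleared late, had a promoter peak in none. The letters run 5′ to 3′ on the gene's strand from 250 bases before to 50 after the start site, after RefSeq on GRCm38.p6, and the capitals mark CG dinucleotides, the substrate of DNA methylation.
Rgs2, chr1:144004100-144004399 (- strand): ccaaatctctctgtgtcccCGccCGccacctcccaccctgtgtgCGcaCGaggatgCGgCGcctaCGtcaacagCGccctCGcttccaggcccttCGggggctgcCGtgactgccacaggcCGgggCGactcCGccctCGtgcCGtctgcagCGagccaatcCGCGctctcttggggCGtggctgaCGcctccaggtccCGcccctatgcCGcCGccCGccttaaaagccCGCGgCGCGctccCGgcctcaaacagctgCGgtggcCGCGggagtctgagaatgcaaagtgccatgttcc
Bms1, chr6:118419368-118419667 (- strand): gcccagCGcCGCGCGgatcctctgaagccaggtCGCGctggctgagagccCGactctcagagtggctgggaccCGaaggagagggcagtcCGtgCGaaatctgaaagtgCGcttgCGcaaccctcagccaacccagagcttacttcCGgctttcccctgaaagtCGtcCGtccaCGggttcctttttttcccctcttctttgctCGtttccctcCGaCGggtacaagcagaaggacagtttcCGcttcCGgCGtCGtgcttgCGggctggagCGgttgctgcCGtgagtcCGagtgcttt
Sox8, chr17:25570637-25570936 (- strand): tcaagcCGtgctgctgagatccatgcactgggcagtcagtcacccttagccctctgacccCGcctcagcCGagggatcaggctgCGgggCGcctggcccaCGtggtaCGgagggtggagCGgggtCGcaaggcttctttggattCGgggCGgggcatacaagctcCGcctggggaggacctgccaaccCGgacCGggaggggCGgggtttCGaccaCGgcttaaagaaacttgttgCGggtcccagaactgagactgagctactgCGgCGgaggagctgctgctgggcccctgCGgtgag
Obox1, chr7:15547007-15547306 (+ strand): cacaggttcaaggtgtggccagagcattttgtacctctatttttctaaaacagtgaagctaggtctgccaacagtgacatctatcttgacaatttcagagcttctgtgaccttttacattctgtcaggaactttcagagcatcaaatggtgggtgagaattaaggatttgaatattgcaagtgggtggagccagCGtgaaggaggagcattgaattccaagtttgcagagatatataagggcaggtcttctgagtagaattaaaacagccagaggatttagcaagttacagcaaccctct
Rgs2 had 33 CG dinucleotides in these 300 bases, Bms1 27, Sox8 21 and Obox1 1. Of the 150 members, 119 matched a promoter in the table, with a median of 14 CG dinucleotides, against 23 over 4406 matched eligible genes and 7 over all 27025 promoters of the table. The letters TATAAA occurred on either strand in 7.56% of the members' promoters, 6.26% of those of eligible genes and 14.2% of all promoters.

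Most of the loss preceded the early 2-cell stage. Summed over the 150 members, the level was 25269 and 25568 FPKM in the DMSO zygote libraries, 6229 and 6721 in early 2-cell DMSO libraries and 1841 and 1973 in the late 2-cell DMSO libraries that the rule used. The late 2-cell DMSO libraries of the TSA experiment, which the rule did not use, gave 1921 and 1792. Of the 150, 144 had fallen below 50% of their zygote level in early 2-cell DMSO embryos and are called early-cleared here. The other 6 (Dph6, Tbc1d19, Obox1, Nlrp4f, Hmces and Nlrp4a) are called late-cleared. Because DMSO zygotes chose the members, these levels are a description without a test.

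The fall went on in embryos treated with A-485. The median member kept 16% of its zygote level at the early 2-cell stage under DMSO (quartiles 10.1% and 24.4%) and 16.8% under A-485 (10.3% and 27.8%), each against the zygotes of its own treatment, where eligible genes kept medians of 67.8% and 65.4%. At the late 2-cell stage the member median was 5.93% under the DMSO that the rule used, 6.59% under the DMSO of the TSA experiment, 10% under A-485 and 9.23% under TSA. Counts scaled to the mitochondrially encoded genes gave lower values and turned the order of A-485 and its DMSO, with 2.64% and 2.74% under these DMSO groups, 2.196% under A-485 and 2.766% under TSA. TMM-scaled counts gave 7.133% under the DMSO of the TSA experiment and 7.626% under TSA. A level at a later stage does not separate stored from newly made RNA. In FPKM eligible genes kept 64%, 60.3%, 52.1% and 57%. Members below 10% of the zygote level numbered 137 in the DMSO libraries of the TSA experiment, 74 under A-485 and 87 under TSA. Among all eligible genes these numbers were 279, 237 and 184. The rule's own late DMSO had 148 members below 10%, so fewer elsewhere can come from the choice, and nothing is read from these counts. All but 1 of the 150 stood below 50% in the TSA experiment's DMSO, as did all 149 with a value under A-485 and 146 under TSA. Among all eligible genes 2387, 2659 and 2424 stood below 50%.

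**Figure D1:**
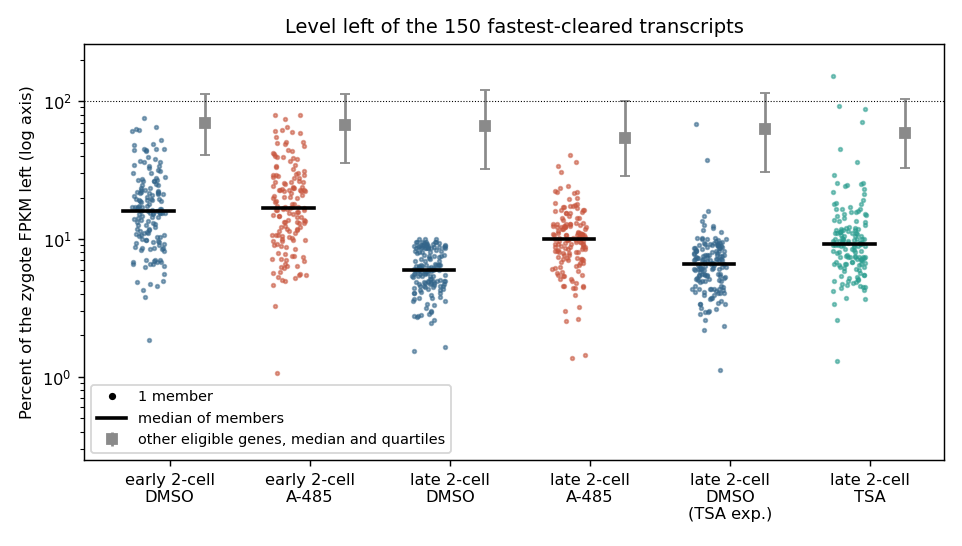
Percent of the zygote FPKM left (log axis) in each group, with 1 point for each member, the median as a black bar, and the median and quartiles of the 5339 other eligible genes as grey squares. Member medians run from 16% and 16.8% at the early 2-cell stage to between 5.93% and 10% at the late 2-cell stage, with members at 0 not drawn. Under mitochondrial scaling the late A-485 median of 2.196% lies below the 2.64% of its DMSO.

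The arms were also set against each other at the zygote stage. A member is called higher or lower where edgeR's quasi-likelihood test, fitted across all genes, gave an adjusted p under 0.05, the fold change was at least 2 and either group had a mean of at least 1 FPKM. Of 149 members tested between A-485 and DMSO zygotes, 0 were called in either direction (3 had an unadjusted p under 0.05, and DESeq2 called 0), beside 0.00548% of all genes called higher and 0.0657% lower, and 0.0182% and 0.0364% of eligible genes. In TMM-scaled counts 7 members stood wholly above and 66 wholly below DMSO, beside 6.1% and 34.1% of eligible genes, with a median member at -0.01 on the log2 scale. The rule used the DMSO arm, so nothing is read from these counts. Along the A-485 arm, from zygote to early 2-cell embryo, in libraries the rule did not use, 133 of 149 members were called lower and 0 higher (4 members missed an unadjusted p under 0.05, and DESeq2 called 0 higher and 130 lower). The background was 15.6% lower and 6.85% higher over all genes and 32.4% and 5.21% over eligible genes. The median member changed by -2.39 on the log2 scale and the median eligible gene by -0.37. The 16 members not called included the 6 late-cleared ones.

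Gm813, a predicted gene, had the largest ratio of all. It stood at 330.6 and 345.1 FPKM in DMSO and 390.8 and 380.4 in A-485 zygotes, and at 5.67 and 6.86 in DMSO and 3.90 and 4.33 in A-485 early 2-cell embryos. Its fall under A-485, -6.33 ± 0.12 on the log2 scale (± SE, adjusted p = 3.2e-12, edgeR), was the steepest among the members tested. The A-485 pair lay below the DMSO pair at the early stage without a call (adjusted p = 0.45, edgeR).

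Rgs2, a GTPase activator that dampens G-protein signalling and held the second rank, went from 442.1 and 432.2 FPKM in DMSO zygotes to 31.55 and 40.00 in early and 10.15 and 13.88 in late 2-cell embryos. Under A-485 it went from 434.9 and 452.1 to 33.67 and 27.96 and then stayed at 31.26 and 28.32. The arms overlapped at the early stage. Both late A-485 values lay above both late DMSO values, but the latter chose the members, so nothing is read from that order.

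The other members of the 10 highest ranks were Ip6k2, an inositol phosphate kinase, Psma7, a proteasome subunit, Gsta4, a glutathione transferase, Oas1h, of the oligoadenylate synthetase family, Crabp2, a retinoic acid-binding protein, Arpc1b, a subunit of the actin-nucleating Arp2/3 complex, Ifit1bl2, of the interferon-induced IFIT family, and Rnaset2a, a ribonuclease. All 10 were called lower from zygote to early 2-cell embryo under A-485, by between -1.80 (Ifit1bl2) and -6.33 (Gm813) on the log2 scale. Oas1h has close copies in Oas1c and Oas1e, and Rnaset2a in Rnaset2b, so reads may have been shared among copies.

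The lists of genes grouped by function held from 0 to 5 members each, where 150 of all 5489 eligible genes were members. The list of the subcortical maternal complex, a protein layer under the egg membrane, and the NLRP family held 5 members among its 18 eligible genes (Nlrp4f, Nlrp4a, Nlrp5, Ooep and Nlrp9b). The oocyte and germline transcription factors held 4 of 12 (Zfp57, Obox1, Obox2 and Nobox), the F-box and ubiquitin ligase list 4 of 25 (Fbxw28, Fbxw20, Fbxw22 and Fbxw26) and the clustered oocyte families 4 of 24 (D6Ertd527e, Oog4, Tdrd12 and E330017A01Rik). Metabolism held 3 of 17 (Dnmt1, Txnip and Gsta4), signalling 2 of 20 (Rgs2 and Izumo1r), zona and secreted proteins 1 of 13 (Oosp2), RNA-binding and translational control 1 of 28 (Zar1l), mRNA decay 1 of 43 (Pabpn1l) and meiotic control 0 of 29. These counts carry no test.

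Zfp57, a zinc-finger protein that protects imprinted loci, was the most abundant member, at 1929 and 1839 FPKM in DMSO zygotes. It stood at 650.8 and 645.0 in DMSO and 600.5 and 659.6 in A-485 early embryos, and at 175.5 and 203.9 in DMSO and 186.4 and 191.5 in A-485 late embryos. The arms overlapped at the early stage in FPKM. The late A-485 pair lay between the late DMSO values in FPKM but below them in TMM-scaled counts, and that DMSO pair chose the members.

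Nlrp5 (MATER), a core subunit of the subcortical complex, held 305.8 and 335.8 FPKM in DMSO zygotes, 61.51 and 59.05 in early and 26.33 and 32.21 in late DMSO embryos. Under A-485 it held 360.4 and 363.2, then 52.69 and 53.80, then 44.92 and 40.54. Both late A-485 values lay above the late DMSO values of the TSA experiment, 27.89 and 27.28, which the rule did not use. The change against these, 0.34 ± 0.11 on the log2 scale (adjusted p = 0.023, edgeR), was below 2-fold. None of the 18 genes of its list was called in the early or in any late comparison of an inhibitor with DMSO, and their median under late A-485 was 0.36 on the log2 scale (TSA -0.07) against the TSA experiment's DMSO.

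Dnmt1, the maintenance DNA methyltransferase, did its falling before the early 2-cell stage. It stood at 360.2 and 478.2 FPKM in DMSO zygotes, 32.31 and 37.03 in early and 40.33 and 33.09 in late DMSO embryos, and at 36.39 and 29.53 in early and 31.28 and 27.56 in late A-485 embryos. The early arms differed by 0.15 ± 0.09 on the log2 scale (adjusted p = 0.35, edgeR), and late A-485 and TSA embryos differed from the TSA experiment's DMSO (41.18 and 42.33 FPKM) by -0.43 ± 0.10 and -0.47 ± 0.10 (adjusted p = 0.0055 and 0.0031, edgeR), below 2-fold.

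Pabpn1l, a poly(A)-binding protein of oocytes and the 1 member on the decay list, fell from 111.3 and 117.6 to 4.60 and 5.80 FPKM under DMSO, and A-485 early embryos held 5.51 and 6.28. The arms overlapped. Zar1l, a germ-cell RNA-binding protein, fell from 235.0 and 257.9 to 13.39 and 14.26 in DMSO and stood at 12.95 and 14.10 in A-485 early embryos, again overlapping. Late embryos held 14.41 and 11.05 FPKM of Zar1l in the TSA experiment's DMSO and 7.03 and 5.74 under TSA, a called fall of -1.35 ± 0.27 on the log2 scale (adjusted p = 0.0019, edgeR). Both TSA values lay below both DMSO values.

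The remaining list members kept like shares of their zygote level in both early arms. For Oosp2, an oocyte-secreted protein, these were 15.9% under DMSO and 16.9% under A-485, and for Izumo1r (JUNO), the egg's receptor for sperm, 26.6% and 29.8%. The F-box gene Fbxw28 kept 15.5% and 13%, Fbxw20 14% and 14.4%, and Fbxw22 17.1% and 16.2%. D6Ertd527e kept 21.6% and 23.8%, Oog4, an oogenesin, 19.2% and 20.8%, and Tdrd12, a piRNA-pathway protein, 11.8% and 11.9%. None of these was called at the early stage. The Fbxw genes are close copies of one another, so their reads may have been shared.

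The 6 late-cleared members kept a median of 62.5% of their zygote level at the early 2-cell stage under DMSO and 61% under A-485. Obox1, an oocyte homeobox gene, kept the most: 923.9 and 893.8 FPKM in DMSO zygotes, 666.2 and 704.4 in DMSO and 794.8 and 646.5 in A-485 early embryos, then 81.14 and 76.51 in DMSO and 97.04 and 124.2 in A-485 late embryos. The early arms overlapped. The late A-485 pair lay above the late DMSO pair in FPKM but overlapped it in TMM-scaled counts, and that DMSO pair chose the members. Obox2, whose annotation overlaps that of Obox1, was early-cleared, with 14.1% left, so the division of reads between these genes is uncertain.

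Dph6, an enzyme of diphthamide synthesis, fell late and, in FPKM and TMM-scaled counts, less far under A-485. It held 209.1 and 196.0 FPKM in DMSO zygotes and 123.7 and 137.9 in DMSO and 147.7 and 146.7 in A-485 early embryos. In late embryos it held 10.56 and 11.16 in the DMSO of the same experiment, 11.07 and 6.46 in that of the TSA experiment, 30.69 and 34.13 under A-485 and 18.91 and 16.88 under TSA. Both late A-485 values lay above both DMSO values of the TSA experiment, which the rule did not use. The change against these was 1.22 ± 0.23 on the log2 scale in TMM-scaled counts (adjusted p = 0.0017, edgeR). Under TSA it was 0.35 ± 0.22 without a call (adjusted p = 0.25, edgeR). Mitochondrial scaling moved the median eligible gene of the A-485 comparison by -0.45.

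Of the others, Nlrp4f went from 60.4% of its zygote level in early DMSO embryos to 6.04% in the late DMSO of the TSA experiment, and from 60.4% to 10.7% under A-485. Nlrp4a went from 61.9% to 8.96% and from 50.5% to 12.2%. Hmces, a protein that shields abasic DNA, went from 63.1% to 8.68% and from 59% to 16.1%, and Tbc1d19, a Rab-GTPase activator-like protein, from 52.3% to 6.13% and from 61.5% to 18.2%. Hmces and Tbc1d19 were named after their values were seen, because they complete the 6. All 6 were called lower between the early and the late stage, under A-485 and under DMSO, with medians of -2.48 and -3.11 on the log2 scale.

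**Figure D2:**
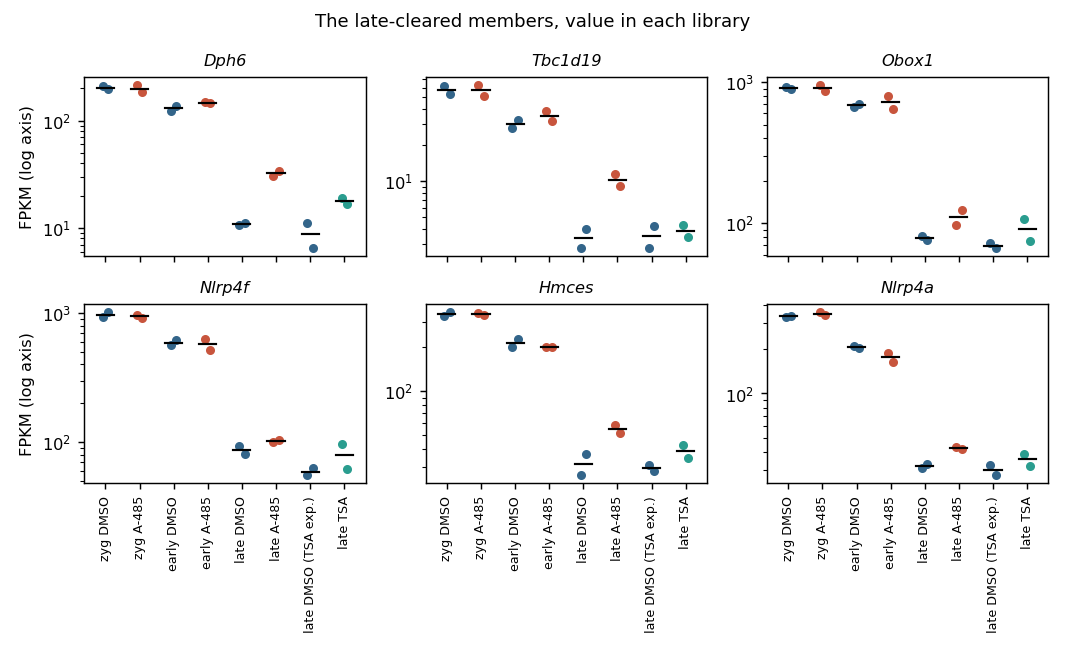
FPKM (log axis) of the 6 late-cleared members in each of the 16 libraries, with the mean of each pair as a bar. Early 2-cell pairs stand above 50% of the zygote level and every late pair, with A-485 and TSA included, stands far lower, between 4.33% (Dph6, DMSO) and 18.2% (Tbc1d19, A-485) of it.

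At the early 2-cell stage the test called no member different between A-485 and DMSO. Of 148 tested, 0 were called higher and 0 lower (DESeq2 also 0 and 0), beside 0.402% and 7.9% of all genes and 0.128% and 4.17% of eligible genes. The median change was 0.07 on the log2 scale, against 0.06 over eligible genes. An unadjusted p under 0.05 was reached by 28 members (18.9%; 19 higher, 9 lower), against 27.7% of eligible genes. Without the 2-fold requirement 4 members passed, named here because they are the whole count. Zfp383 was higher by 0.52 ± 0.13 and 1110012L19Rik by 0.71 ± 0.20 on the log2 scale, and Ssb (the La protein) changed by -0.38 ± 0.10 and Neil3, a DNA glycosylase, by -0.50 ± 0.14 (adjusted p = 0.02, 0.037, 0.03 and 0.033, edgeR). In counts simulated from these libraries the test recovered 88 of 100 genes changed 4-fold, so smaller changes of members are not excluded at this depth.

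At the late 2-cell stage more members stood above DMSO than below it under A-485. The members were chosen for a low level under late DMSO, so a count of members higher under an inhibitor is read only against its background. Against the DMSO libraries of the TSA experiment, which the rule did not use, 20 of 148 members (13.5%) were called higher and 4 lower, beside 11.6% and 19.6% of all genes and 6.21% and 28.3% of eligible genes. The median member changed by 0.33 on the log2 scale and the median eligible gene by -0.19. Experiment and treatment cannot be told apart in this comparison. Against the DMSO of the same experiment, whose values chose the members, 22 were called higher and 2 lower, beside 10.5% and 16.8% of all genes and 5.5% and 26.5% of eligible genes, and nothing is read from that count. Mitochondrial transcripts took 19.5% and 20.7% of counts in late A-485 libraries and 10.5% to 12.5% in the 4 late DMSO libraries. Scaling to those transcripts turned the median member to -0.12 against the TSA experiment's DMSO and the counts to 5 higher and 12 lower. Without the first or the second DMSO library 9 and 12 members were called higher, and without the second A-485 library 10 were called lower.

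Under TSA, 16 of 149 members were called higher and 7 lower, beside 13.8% and 13.9% of all genes and 3.57% and 24.4% of eligible genes. The median member changed by 0.10 on the log2 scale and the median eligible gene by -0.25. Scaling to library totals in place of the trimmed mean of M-values (TMM) raised the eligible median by 0.36 and gave 28 members higher and 3 lower. The comparisons of A-485 and of TSA share these DMSO libraries, so their values stand side by side below and do not support each other.

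**Figure D3:**
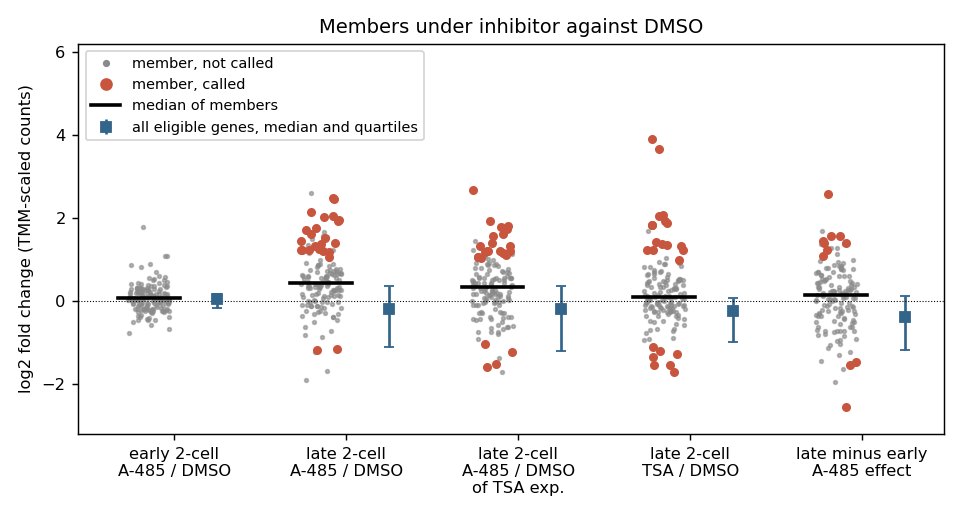
log2 fold change of TMM-scaled counts for each tested member (red where called, bar at the median), with the median and quartiles of all eligible genes in blue. The early 2-cell comparison has 0 called members. Against the TSA experiment's DMSO, the late member medians of 0.33 (A-485) and 0.10 (TSA) lie above eligible medians of -0.19 and -0.25. The late A-485 median of 0.45 (eligible -0.20) is against the DMSO that chose the members, so nothing is read from it. Both late A-485 member medians change direction under mitochondrial scaling.

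Cyb5a, the cytochrome b5 that passes electrons to lipid-modifying enzymes, stood at the largest share of its zygote level among members with a value in late A-485 embryos, after a lower level at the early stage. It held 97.69 and 83.37 FPKM in DMSO zygotes, 16.32 and 23.48 in early DMSO and 19.55 and 17.09 in early A-485 embryos. Late embryos held 5.21 and 5.53 under the same experiment's DMSO, 5.20 and 4.15 under the TSA experiment's DMSO, 39.14 and 34.65 under A-485 and 76.86 and 81.37 under TSA. The early arms overlapped, and each late inhibitor pair lay above both DMSO values of the TSA experiment, which the rule did not use. The change was 2.68 ± 0.29 on the log2 scale under A-485 (adjusted p = 3.6e-05) and 3.67 ± 0.20 under TSA (adjusted p = 1.2e-07, edgeR). Of the zygote level, 40.9% was present under late A-485, where early A-485 embryos had 20.3%, and 87.4% under TSA.

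Sox8, a SoxE-family transcription factor, stood at 46.70 and 61.17 FPKM in DMSO zygotes, 5.79 and 6.27 in early DMSO and 4.16 and 3.99 in early A-485 embryos. Late embryos held 2.33 and 1.66 in the TSA experiment's DMSO, 46.33 and 53.37 under TSA and 9.13 and 6.94 under A-485. The TSA pair stood at 92.4% of the zygote level and the A-485 pair at 14.2%, both above the DMSO pair. The change was 3.92 ± 0.13 under TSA (adjusted p = 7.8e-09) and 1.33 ± 0.29 under A-485 (adjusted p = 0.0043, edgeR), the latter 0.88 without a call under mitochondrial scaling.

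Gcfc2, a splicing-associated protein, held 0.83 and 1.16 FPKM in late DMSO and 3.15 and 4.47 in TSA embryos, without overlap (2.08 ± 0.27, adjusted p = 0.00011, edgeR). Psrc1, a microtubule-binding protein, held 3.12 and 3.65 in the same DMSO, 11.96 and 8.37 under TSA and 23.28 and 10.52 under A-485, where 36.4% of its zygote level was present. The A-485 libraries differed from each other by over 2-fold, and both exceeded DMSO. The change was 1.81 ± 0.31 under A-485 and 1.24 ± 0.26 under TSA (adjusted p = 0.00087 and 0.0028, edgeR).

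Rgs2 was at 9.81 and 9.21 FPKM in late DMSO of the TSA experiment and 32.12 and 27.81 under TSA, close to its late A-485 values given above. The A-485 change was called (1.62 ± 0.15, adjusted p = 9.9e-06) and the TSA change of 0.93 ± 0.15 (adjusted p = 0.00056, edgeR) missed 2-fold. The TSA rise was smaller in these TMM-scaled counts than in FPKM. Gsta4 held 6.03 and 4.49 in DMSO, 26.77 and 21.39 under TSA and 11.59 and 9.28 under A-485, and here TSA gave the call (1.84 ± 0.24, adjusted p = 0.0001, against 0.62 ± 0.35, adjusted p = 0.17, edgeR). Whether the inhibitors differed from each other was not tested.

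Bola3, a mitochondrial iron-sulfur cluster factor, went from 1.84 and 0.64 FPKM in DMSO to 2.86 and 5.94 under A-485. The call (1.93 ± 0.69, adjusted p = 0.044, edgeR) was lost under 6 alternatives, among them DESeq2 and leaving out either DMSO library or the first A-485 library. Mrps35, a subunit of the mitochondrial ribosome, held 1.96 and 3.02 in DMSO and 13.15 and 16.16 under A-485, or 33.8% of its zygote level. Early A-485 embryos had held less, 5.66 and 4.55 or 11.8%, and the change from early to late A-485 was not called (0.91 ± 0.37, adjusted p = 0.068, edgeR). Its late A-485 counts were higher than those of the DMSO by 1.57 ± 0.35 on the log2 scale (adjusted p = 0.0047, edgeR), a smaller difference than in FPKM, which also depends on the transcript length estimated in each library.

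Bms1, a GTPase of ribosome assembly, stood higher in late than in early DMSO embryos, and a rise between these stages was not called under A-485. No early TSA embryos were sequenced. It fell from 332.3 and 377.2 FPKM in DMSO zygotes to 13.39 and 13.68 in early DMSO and 11.01 and 12.57 in early A-485 embryos. Late DMSO embryos held 33.11 and 29.41 and, in the TSA experiment, 40.09 and 39.70, against 13.76 and 18.47 under A-485 and 20.30 and 10.88 under TSA. Both late DMSO values of the TSA experiment, which the rule did not use, lay above all 4 inhibitor values. The change was -1.58 ± 0.14 under A-485 (adjusted p = 9.4e-06) and -1.71 ± 0.21 under TSA (adjusted p = 6.8e-05, edgeR). From early to late DMSO it was 1.60 ± 0.09 (adjusted p = 9.8e-08) and from early to late A-485 0.17 ± 0.15 (adjusted p = 0.44, edgeR).

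Aspm, a spindle-pole protein, fell from 616.0 and 524.1 FPKM in DMSO zygotes to 45.85 and 52.97 in early DMSO and 39.44 and 39.64 in early A-485 embryos. Late DMSO embryos held 47.78 and 50.89, or 62.19 and 51.62 in the TSA experiment, late A-485 embryos 28.28 and 29.22 and TSA embryos 35.27 and 21.85. The inhibitor values again lay below both late DMSO values of the TSA experiment, which the rule did not use. The change was -1.03 ± 0.09 under A-485 (adjusted p = 7.9e-06) and -1.54 ± 0.09 under TSA (adjusted p = 1.9e-07, edgeR). The A-485 call was lost under 5 alternatives, each at less than 2-fold, 1 of them without the second DMSO library (-0.93).

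Timm9, a chaperone of mitochondrial import, held 23.21 and 18.94 FPKM in late DMSO of the TSA experiment, 8.96 and 10.76 under A-485 and 12.07 and 9.93 under TSA, without overlap (-1.50 ± 0.28 and -1.28 ± 0.23, adjusted p = 0.0017 and 0.00091, edgeR). Bbs4, a subunit of the ciliary BBSome, held 16.61 and 13.08 in DMSO, 7.89 and 4.74 under TSA (-1.53 ± 0.24, adjusted p = 0.00035, edgeR) and 9.57 and 11.81 under A-485 (-0.66 ± 0.18, adjusted p = 0.014, edgeR), the latter below 2-fold. Tmsb10, an actin-binding peptide, held 50.31 and 44.52 in DMSO, 28.73 and 26.98 under A-485 and 88.26 and 85.47 under TSA. Its change was -1.24 ± 0.23 under A-485 (adjusted p = 0.0013) and 0.52 ± 0.14 under TSA (adjusted p = 0.012, edgeR). Against the DMSO of the A-485 experiment, at 27.76 and 28.84 FPKM, its A-485 values overlapped in FPKM.

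**Figure D4:**
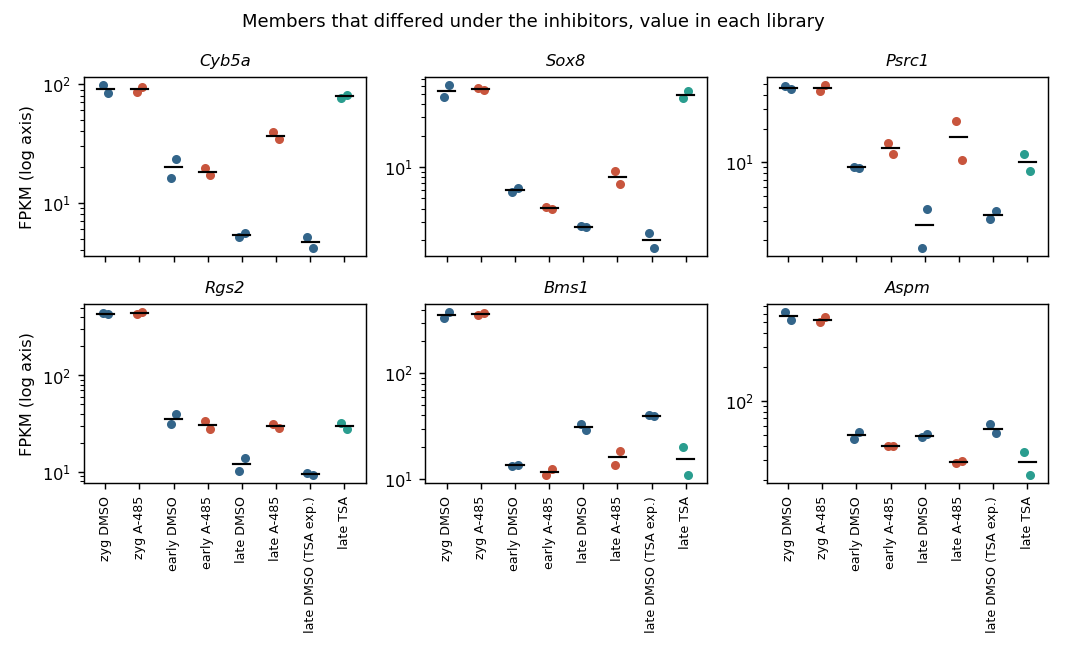
FPKM (log axis) of 6 members in each of the 16 libraries, with the mean of each pair as a bar. Cyb5a, Sox8, Psrc1 and Rgs2 stand higher in the late A-485 and TSA pairs than in the late DMSO pair of the TSA experiment. Bms1 and Aspm stand lower than in that pair.

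Not all of the members called are described singly. The 16 higher under TSA ran from 1.00 (Ip6k2) to 3.92 (Sox8) on the log2 scale, and the 7 lower from -1.11 (Pdpn, podoplanin) to -1.71 (Bms1). The 20 higher under A-485 ran from 1.04 (Galm, galactose mutarotase) to 2.68 (Cyb5a). The groups did not overlap for any called member of either comparison. Over all tested members, 86 stood wholly above and 24 wholly below DMSO under A-485, against 37.9% and 47.7% of eligible genes, and 57 and 24 under TSA, against 25.9% and 53.5%.

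The change from the early to the late 2-cell stage was compared between the arms. Under DMSO, with late libraries from the TSA experiment, 94 of 148 members were called lower and 2 higher (Bms1 and Aspm), beside 10.3% and 19.3% of all genes and 20% and 18.1% of eligible genes, with a median of -1.38 on the log2 scale. Under A-485, 77 were called lower and 1 higher, beside 7.15% and 12.8% of all genes and 23.1% and 2.77% of eligible genes, with a median of -1.14. The 1 was Txnip, an inhibitor of thioredoxin, at 9.29 and 9.83 FPKM in early and 20.64 and 28.20 in late A-485 embryos (1.12 ± 0.17, adjusted p = 2.3e-05, edgeR). DMSO embryos also held more of it late (21.71 and 16.19) than early (11.61 and 14.06).

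The test of the difference between these changes called 8 members higher and 3 lower, beside 6.49% and 11.6% of all genes and 2.9% and 27.8% of eligible genes. The median member differed by 0.15 and the median eligible gene by -0.39 on the log2 scale, the former turning to -0.07 under mitochondrial scaling. Cyb5a led those higher (2.58 ± 0.40, adjusted p = 2.6e-05) and Fbp1, the gluconeogenic fructose bisphosphatase, those lower (-2.56 ± 0.82, adjusted p = 0.025, edgeR). Without the first late A-485 library the counts were 26 higher and 1 lower, without the second 8 lower, and without any 1 of the 4 early libraries 1 lower. Stage and experiment cannot be told apart in its DMSO arm, nor stage and batch in its A-485 arm.

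At the low end of the late A-485 embryos stood Fbp1, Stk32c, a serine/threonine kinase, and Gm10139. Fbp1 held 0.24 and 0.37 FPKM there against 1.21 and 0.41 in the TSA experiment's DMSO (-1.57 ± 0.98, adjusted p = 0.22, edgeR), and 6.73 and 5.75 in early A-485 against 2.60 and 4.49 in early DMSO embryos. Stk32c held 0.18 and 0.32 against 0.61 and 0.72 (-1.70 ± 0.87, adjusted p = 0.14, edgeR). Neither late difference was called, and few reads were counted at these levels. Gm10139 was listed at 0 in both late libraries of A-485 and of its DMSO and at 21.33 and 10.74 under TSA. The Ddit3 entry held 24.48 FPKM in 1 DMSO zygote library and 0 in the other and in both A-485 zygote libraries, so its place among the members rests on 1 library. Read assignment to the last pair is uncertain, and Ddit3 was tested in no comparison and Gm10139 in 3.

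The mRNA decay machinery was followed as a list of 43 eligible genes. At the early stage 0 were called higher and 2 lower under A-485 (Cnot10, of the CCR4-NOT deadenylase, and Exosc10, of the exosome), beside 0.128% and 4.17% of eligible genes. At the late stage 15 were called lower and 0 higher under A-485 and 16 and 0 under TSA, beside 28.3% and 24.4% of eligible genes called lower, with medians of -0.62 and -0.46 on the log2 scale against -0.19 and -0.25 over eligible genes. Those lower under each inhibitor included Cnot1, Cnot8 and Cnot10 of CCR4-NOT, Dicer1, the exonuclease Xrn2, Upf1 of nonsense-mediated decay and Ythdf2, a reader of methylated adenosine. Below 2-fold, genes of the list went both ways under late A-485 against the TSA experiment's DMSO. Cnot6l and Pan3 changed by 0.69 and 0.56 and Cnot3 and Smg1 by -0.85 and -0.90 on the log2 scale. These were named after their values were seen. Whether the level of the listed genes bears on clearance of the members was not tested.

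Members were shorter at the median than the 5339 other eligible genes. Their median effective length, which enters FPKM and so the rule, was 1336 bases against 2078, their median coding length 1106 against 1470 and their median 3′ UTR 402.5 against 953 bases. The letters ATTTA, the core of AU-rich elements, occurred in the 3′ UTR of 54.5% of 143 members and 70.6% of 5193 other eligible genes with a 3′ UTR. TTTTAT, of the cytoplasmic polyadenylation element, occurred in 35.7% and 59.6%, and TGTANATA, the Pumilio motif, in 10.5% and 27.8%. Per kilobase of 3′ UTR the counts were 1.69 and 1.99 for ATTTA, 0.894 and 1.15 for TTTTAT and 0.175 and 0.272 for TGTANATA. Matches were sought on the transcript strand alone, these are descriptions without a test, and a match is not a site.

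Open chromatin was mapped by ATAC-seq, in which a transposase cuts accessible DNA, with 1 peak list for each stage and treatment, so the shares have no spread. A peak lay within 1 kb of an annotated start site for 38.7% of members in late 1-cell DMSO and 32.7% in late 1-cell A-485 embryos, against 48.6% and 48.3% of eligible genes. In early 2-cell embryos it did so for 32.7% of members under DMSO and 50% under A-485, against 61.7% and 71.9%. The early A-485 list held 13712 peaks and the early DMSO list 27693. Of the 150 members, 36 had a promoter peak in the early A-485 list and not in the early DMSO list, 10 the reverse and 39 in both (24%, 6.67% and 26%, against 18.1%, 7.87% and 53.8% of eligible genes), and 61 had none in any of the 4 lists (40.7%, against 17.9% of eligible genes). Members with a peak in early DMSO embryos held a median of 21 CG dinucleotides in their promoter (45 genes) and those without 8.5 (74 genes), against 24 and 20 over eligible genes.

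**Figure D5:**
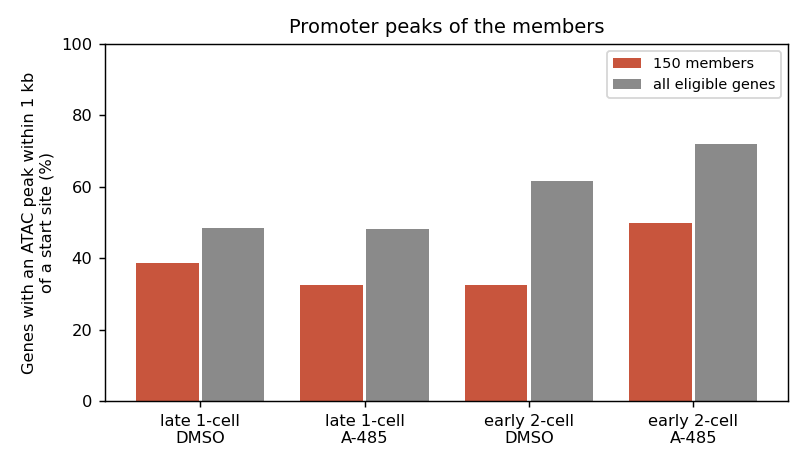
Percent of genes with an ATAC peak within 1 kb of a start site in each of 4 peak lists, for the 150 members and all 5489 eligible genes. The members' bars, from 32.7% to 50%, lie below those of eligible genes, from 48.3% to 71.9%, in each list.

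Chromosomes 5, 6 and 9 held 16, 15 and 14 members. Some lay within 1 Mb of each other: Fbxw20, Fbxw22, Fbxw26, Fbxw28 and Ip6k2 on chromosome 9, Oas1c, Oas1e and Oas1h on chromosome 5, Psrc1, Sars and Aknad1 on chromosome 3, and Gm813 and E330017A01Rik on chromosome 16. On GRCm38, Gm813 spans chr16:58613675-58616978, Rgs2 chr1:143999338-144004161, Sox8 chr17:25565892-25570686, Psrc1 chr3:108383839-108388231, Bms1 chr6:118383381-118419474 and Aspm chr1:139454772-139494091.

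Across the series, libraries held 13206163 to 32585987 counts, the fewest in late 2-cell A-485. The 6 oocyte-derived markers summed to between 1570 and 1760 FPKM in zygotes, 301 and 348 in late DMSO, 270 and 271 in that of the TSA experiment, 624 to 626 in late A-485 and 351 to 366 in TSA libraries. Bmp15 alone held 411 in late A-485, against 154 and 128 in these DMSO groups. Zp3 stood lower (11.2 against 18 and 12.8) and Zar1 between (26 against 26.7 and 17.8). Gdf9, Padi6 and the member Nlrp5 stood higher. The 12 cumulus-cell markers summed to 4.39 and 4.99 FPKM in late A-485 (Fshr and Amh at 0), 3.57 and 3.89 in TSA and 1.26 to 1.49 in late DMSO. The 7 fibroblast markers summed to 14.3 and 16.7 in late A-485 (Pdgfra 14.9, with Col1a2, Dcn and Lum at 0), 9.70 and 10.8 in TSA and at most 1.98 in late DMSO. The 6 erythroid markers summed to 44.6 and 46.8 in TSA (Hba-a2 37.6, with Hbb-bs and Hbb-bt at 0) and at most 4.56 in the other late libraries, and the 7 sperm markers to 13.2 to 18.9 in zygotes. Their part in the members' values was not tested.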

How the data were processed

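Total RNA of embryos had been sequenced after random priming with a stranded kit (SMART-Seq Stranded), and open chromatin by ATAC-seq. Per the submitters' processing notes, tools included Trimmomatic 0.39, STAR 2.7.8a, RSEM 1.3.1, Bowtie2 2.4.2, deepTools 3.5.1 and DESeq2 1.32.0, on GRCm38. The authors deposited RSEM expected counts and FPKM for each of 55385 genes and library, and ATAC peaks, with fold ratio and −log10 p and q columns, called over both replicates. Columns of the peak lists other than positions were not used.

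Expected counts were rounded, genes with at least 10 counts over the libraries of a comparison were kept, and edgeR 4.0.16 (R 4.3.3) fitted TMM-scaled counts with the quasi-likelihood F test and Benjamini-Hochberg adjustment over all genes tested. FPKM is per library and its length estimate, so fold changes of counts and of FPKM can differ. Gene names, types and 3′ UTRs came from GENCODE M21, to which 55144 identifiers matched, and promoters from RefSeq. Members and lists were chosen with earlier results of these data known. Genes were named by a rule: the 10 highest ranks, the 3 largest calls each way in the early A-485, TSA and late A-485 comparisons, the 3 most abundant members of each list, the genes of ranks 150 and 151, and the 3 members with the most and the least left under late A-485. Replicate pairs differed by more than counting noise (chi-square per degree of freedom 9.99 to 22.2). The test was tried on simulated data. In a simulation of the early comparison on 19739 genes, 122 of 200 changed genes were recovered, and of 135 calls 13 were false. In a simulation of the TSA comparison on 22456 genes, 135 of 200 were recovered, and of 154 calls 19 were false. Alternatives were DESeq2 1.42.0, other scalings, filters, cutoffs, members and fits, and leaving out each library.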

Additional observations from a re-analysis of the deposited data

Results flagged for a closer look

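For 11 members the change from the early to the late 2-cell stage differed between the A-485 and DMSO arms, by the interaction of stage and treatment (edgeR, adjusted over 25692 genes, of which 6.49% were called higher and 11.6% lower). Higher were Cyb5a (2.58 ± 0.40 on the log2 scale, adjusted p = 2.6e-05), Sox8 (1.57 ± 0.39, 0.0039), Gm4924 (1.57 ± 0.44, 0.0098), Olfr976, an olfactory receptor gene (1.44 ± 0.24, 6.9e-05), Camsap3, which binds microtubule minus ends (1.41 ± 0.42, 0.015), Rgs2 (1.40 ± 0.20, 7.4e-06), Psrc1 (1.23 ± 0.38, 0.018) and Fam90a1a (1.08 ± 0.35, 0.024). Lower were Fbp1 (-2.56 ± 0.82, 0.025), Bms1 (-1.54 ± 0.19, 7.8e-07) and Timm9 (-1.46 ± 0.41, 0.0099).

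Olfr976 shows the pattern of those higher. It held 18.22 and 20.14 FPKM in early DMSO and 17.57 and 15.54 in early A-485 embryos, then 2.99 and 3.25 in late DMSO of the TSA experiment and 9.05 and 11.05 in late A-485 embryos. Gm4924 held 1.70 and 1.37 and 5.30 and 4.42 at the late stage, and Camsap3 1.89 and 3.38 and 8.14 and 6.56. Olfr976, Gm4924, Camsap3 and Fam90a1a were named because they complete the calls. The late DMSO libraries came from the TSA experiment, so experiment and treatment cannot be told apart in these differences. No group had the 4 libraries that a search for single outlying samples needs.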

How the results depend on the processing

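Of 1890 alternative values over 142 tested values of named genes, 1814 kept their direction and side of the threshold, 76 kept their direction but lost the call and 0 reversed. The genes were named in part for large calls or ratios, which favours values that stay. Dropping the fold or the FPKM cutoff can remove no call. Counts of members called depended more on the setting.

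At the early 2-cell stage under A-485, members called higher (0) became 1 with DESeq2 size factors, with all 16 libraries in one fit, with members chosen by the TSA experiment's DMSO and with the 300 highest ratios, 2 without the filter on low counts and 2 higher and 2 lower without the fold cutoff. Leaving out single libraries gave 0 to 2 higher, with 1 without the second A-485 and 2 without the second DMSO library. Without the fold cutoff counts were 27 higher and 14 lower under TSA, 32 and 10 under late A-485 against the TSA experiment's DMSO, 2 and 7 higher from early to late with A-485 and with DMSO, and 13 and 10 for the difference of those changes. With library totals they were 28 and 3 under TSA, 2 lower under late A-485, 0 lower against its own DMSO, 2 higher from early to late with A-485, and 24 and 1 for the difference. With mitochondrial scaling they were 5 and 12 under late A-485, 5 and 7 against its own DMSO, 0 higher from early to late with A-485 and 8 lower for the difference. All 16 libraries in one fit gave 16 higher for the difference.

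With the 300 highest ratios, by construction about doubled, counts were 31 and 14 under TSA, 47 and 12 under late A-485, 48 and 7 against its own DMSO, 251 lower from zygote to early with A-485, 3 and 138 from early to late with A-485, 7 and 177 with DMSO, and 21 and 15 for the difference. Members chosen by the TSA experiment's DMSO, 111 of them shared, gave 3 lower under TSA, 1 lower in each late A-485 comparison and 0 higher from early to late in either arm. Members chosen with 0.1 FPKM added, 120 of them shared, gave 4 lower under TSA, 1 lower in each late A-485 comparison, and 2 and 1 higher from early to late with A-485 and DMSO. Leaving out Ddit3 for uncertain read assignment, an alternative chosen after seeing the data, could change no count of calls, since Ddit3 was tested in no comparison. The other members with uncertain or shared reads stayed in.

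Leaving out single libraries gave 9 to 28 higher and 3 to 10 lower under late A-485, 1 to 4 lower against its own DMSO (1 without the first A-485 or first DMSO library, 4 without the second A-485 library), 0 to 2 higher from early to late with A-485 (2 without the first and 0 without the second late library), and 6 to 26 higher and 1 to 8 lower for the difference. The median percent left ranged from 15.55 to 17.13 in early DMSO, 16.49 to 16.92 in early A-485, 9.388 to 10.22 in late A-485, 5.282 to 6.71 in its DMSO, and 6.349 to 6.744 and 7.897 to 10.2 in late DMSO and TSA of the TSA experiment. TMM-scaled counts gave 17.73, 9.285 and 6.366 in early A-485, late A-485 and its late DMSO, and 7.133 and 7.626 in late DMSO and TSA of the TSA experiment. Counts scaled to mitochondrial genes gave 6.973 and 6.539 in early DMSO and A-485, 2.64 and 2.196 in late DMSO and A-485, and 2.74 and 2.766 in late DMSO and TSA of the TSA experiment. The causes were not tested. Relative to TMM, library totals moved the median eligible gene by 0.36 (TSA), 0.26 and 0.19 (late A-485 against either DMSO), and mitochondrial scaling by -0.45 and -0.63 (late A-485) and -1.55 (zygote to early).

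With the replicate number as a block, 2 members were called higher at the early stage and 5 lower for the difference. The labels name no shared batch, there were 2 pairs, and deviations of same-numbered libraries correlated at -0.036 to 0.093 over 12228 genes, so the numbers do not pair the libraries. Promoter peaks within 2 kb were found for 60, 50, 57 and 76 members in late 1-cell DMSO and A-485 and early 2-cell DMSO and A-485. With 2 libraries in each group, members near the threshold depend on single libraries, and members at a few reads carry wide errors.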
